A study of Mus musculus with 17 samples.

Results

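The comparison described here sets Egr1 knockout (KO) uteri against wild-type (WT) uteri 3 h after estradiol (E2). Its arrays were chosen by their titles, which name the genotype and the time, and they are 5 of the 17 arrays of the series, 2 of KO and 3 of WT uteri. Total RNA from whole uterine tissue had been labelled with biotin and hybridised to Illumina bead arrays. The other 12 arrays hold the same genotypes at 0, 6 and 24 h, with 2 arrays in each group. KO arrays carry the knockout status of Egr1 and WT arrays do not, and mice of both genotypes had received E2. The kind of Egr1 allele, the strain, the age, any ovariectomy, the E2 dose, and whether a sample is 1 uterus or a pool are not stated in the labels used here. Whether the arrays of a group stem from different mice is not labelled, and the p-values therefore cover the spread among these arrays alone, part of which may be technical. KO and WT below mean arrays labelled so.

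EGR1 is a zinc-finger transcription factor of the immediate-early class, which cells make within minutes to hours of a growth factor, hormone or mechanical signal. It binds GC-rich DNA through its zinc fingers, and it shares that kind of site with its relatives EGR2, EGR3 and EGR4. In the uterus E2 acts through estrogen receptor alpha to start water uptake, RNA and protein synthesis and later epithelial growth, and EGR1 is among the early factors that E2 induces there. Its cofactors NAB1 and NAB2 restrain the activity of EGR proteins, and NAB2 is itself an EGR target.

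Values are log2 intensities that were quantile normalized between arrays before deposit. A difference of 1 is a 2-fold difference, and each array's values are on a scale set by its remaining genes. A gene is read from its brightest probe, and 14737 genes were tested. Across all probes the arrays of 1 genotype at 3 h correlated with each other at 0.991 to 0.996, and arrays of different genotypes at 0.986 to 0.992. The KO arrays correlated with each other at 0.9908, the lowest value within a genotype. KO replicate 1 was closer to WT replicates 1 and 2 (0.9921 and 0.9915) than to KO replicate 2, but not to WT replicate 3 (0.9902). KO replicate 2 correlated with the WT arrays at 0.9864 to 0.9892. Both KO arrays stood apart from each other in several gene lists. The mean of 15 antigen presentation genes was 10.53 in KO replicate 1 and 11.59 in KO replicate 2, against 10.65 to 10.89 in WT. The mean of the 9 adipocyte markers tested was 8.89 and 9.90 in the same order, against 9.02 to 9.57, and that of 28 DNA replication genes was 8.90 and 9.23, against 9.18 to 9.27. Results that rest on 1 of these arrays are therefore given with and without it. Markers of the tissues that make up a uterus were present on every array: smooth muscle markers had a mean of 11.24 to 11.63, stromal fibroblast markers 10.55 to 10.80 and epithelial markers 10.10 to 10.24, while the array median was 8.20. In whole tissue, fewer cells of a type and less RNA per cell cannot be told apart.

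At 3 h 624 genes differed between KO and WT at an adjusted p under 0.05 (limma), which is 4.23% of those tested. KO was higher for 319 of them (2.16%) and lower for 305 (2.07%). The median size among the called genes was 0.41, against 0.08 among all genes, and 22 of the 624 differed at least 2-fold, 5 higher and 17 lower in KO. The 2 KO arrays lay entirely above or entirely below the 3 WT arrays for 32.7% of all genes and for each of the 624 called genes. The count leans on single arrays. It was 1139 without KO replicate 1 and 198 without KO replicate 2, and 464, 385 and 305 without WT replicates 1, 2 and 3. All 624 kept their direction in each of those 5 fits, and 117 of them, 59 higher and 58 lower, stayed past the threshold in every one. Keeping the direction was fixed in advance, because none of the called genes had overlapping arrays. When a KO array is left out a single KO array remains, so a call can end although the difference hardly changes. With only the 5 arrays at 3 h in the fit, 351 genes were called.

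**Figure D1:**
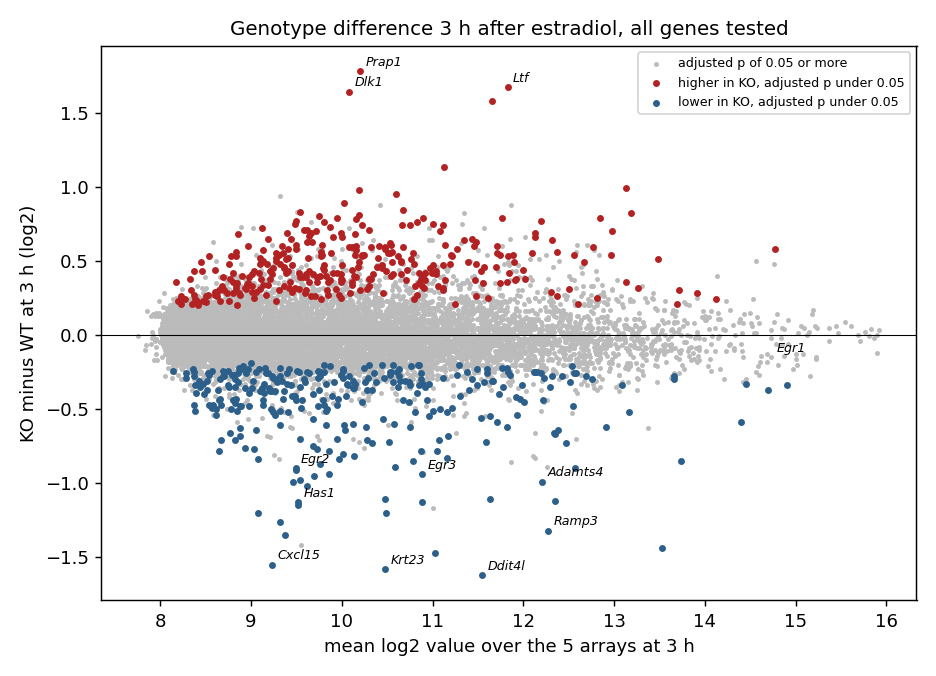
Difference between KO and WT at 3 h (log2, y axis) against the mean log2 value over the 5 arrays (x axis) for each of the 14737 genes, with the called genes in colour. The larger differences lie mostly below the zero line, where 17 called genes differ at least 2-fold against 5 above it, and Egr1 lies near zero at the bright end.

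Egr1 itself was not lower in KO. Its single probe read 14.69 and 14.59 in the KO arrays and 14.87, 14.94 and 14.56 in the WT arrays, so the groups overlapped. The difference was -0.15 ± 0.17 (SE; adjusted p = 0.695). The labels do not say whether this probe falls inside or outside the stretch that was disrupted, and its level is therefore no check of the genotypes. At the other times the KO arrays were the brighter ones, by 1.18 at 0 h (adjusted p = 0.00302), 0.73 at 6 h (0.0924) and 1.65 at 24 h (0.000147).

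Among the relatives of Egr1, Egr2 and Egr3 were lower in KO. Egr2 read 8.97 and 8.94 in KO against 10.05, 9.85 and 9.65 in WT, a difference of -0.90 ± 0.18 (adjusted p = 0.0128). Egr3 read 10.27 and 10.38 in KO against 11.41, 11.28 and 11.10 in WT, a difference of -0.94 ± 0.14 (adjusted p = 0.00332). For both genes each KO array lay below each WT array, but none of the called genes had overlapping arrays. The call of Egr2 ended without KO replicate 2 (-0.88, adjusted p = 0.0935), and a second probe of Egr3 differed by -0.06 only. Nab2, which encodes the inducible EGR corepressor, read 8.84 and 8.80 in KO against 9.09, 9.19 and 9.16 in WT, and its difference of -0.33 did not pass the test (adjusted p = 0.0586). Nab1 (-0.03) and Egr4 (-0.08) did not pass the test (adjusted p = 0.904 and 0.71). Of the 6 genes of this list, 2 were lower and 0 higher, against 2.07% and 2.16% over all genes. The list median was -0.24, against a median of -0.01 over all genes. Egr2 and Egr3 differed by -0.05 and 0.14 at 0 h, by 0.24 and -0.02 at 6 h and by 0.11 and 0.09 at 24 h, and none of these passed the test.

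The EGR binding motif was looked for in promoters because EGR1 is the factor that was knocked out. RefSeq promoters of assembly GRCm38.p6, from 250 bases before to 50 bases after the gene start, were searched on both strands for GCGTGGGCG or GCGGGGGCG. A match was found in 3.47% of all 32851 promoters, and in 6.64% of the 11820 tested genes with a promoter in the table. It was found in 12% of the 259 genes called higher in KO with such a promoter and in 9.21% of the 228 called lower. These shares describe letters and not binding. Only matches wholly before the gene start were eligible for display, and part of the genome was passed over. Of the called genes named by the rule, Wif1 met this and its sequence is shown. Other named genes may hold a match elsewhere in the searched stretch. Wif1 encodes a secreted inhibitor of Wnt ligands. The stretch of its promoter around the match is on the plus strand at chr10:121033893-121033961, with the match, which reads GCGGGGGCG on the minus strand and starts 81 bases before the gene start, in capitals:
Wif1: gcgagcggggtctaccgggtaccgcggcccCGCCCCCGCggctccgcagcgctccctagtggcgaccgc
Wif1 was 8.35 on both KO arrays and 9.57, 9.44 and 9.65 on the WT arrays, a difference of -1.20 ± 0.17 (adjusted p = 0.00254). No match was found in the promoters of Egr2, Nab2, Has1, Plk2 and Icam1, and those of Egr1, Egr3, Adamts4 and Pdgfb were not in the table.

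Of 33 immediate-early genes tested, 1 was higher in KO and 1 lower, with a median of -0.05. Over all genes 2.16% were higher and 2.07% lower, and the count of 2 in 33 is near that background. The AP-1 subunit gene Jund was higher by 0.30 (adjusted p = 0.0145), a call that ended without KO replicate 1 (0.23, adjusted p = 0.0706). Its relative Fosl2 was lower by -0.26 (adjusted p = 0.0474), and that call ended without KO replicate 2 or without any one of the WT arrays (-0.16 to -0.27, adjusted p = 0.0808 to 0.36). A second Fosl2 probe gave 0.06, in the opposite direction. The RNA-destabilizing factor gene Zfp36 (0.47), Klf6 (0.37) and the ERK phosphatase gene Dusp6 (0.33) were the members with the largest differences, and none passed the test (adjusted p = 0.218, 0.104 and 0.273). Without KO replicate 1, 4 members of the list were called.

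Called members of a list that the naming rule does not reach (Adm, Adamts1, Icam1, Tgfb1, Fosl2, Fzd2, Egfr, Klk1, Wfdc2, Asb4 and Shmt2) are named after their values were seen. Among 17 tested genes reported elsewhere as EGR1 targets, 3 were lower in KO and 1 was higher, with a median of -0.08, while over all genes 2.07% were lower and 2.16% higher. Pdgfb, which encodes a platelet-derived growth factor chain, read 10.01 and 9.79 in KO against 10.56, 10.58 and 10.75 in WT. It was lower by -0.73 ± 0.10 (adjusted p = 0.00197), and this was the member whose call held without each array. The leukocyte adhesion gene Icam1 was lower by -0.27 (adjusted p = 0.0329) and the growth factor gene Tgfb1 by -0.24 (0.0286). Both calls ended without any one of the 5 arrays, with differences of -0.25 to -0.29 for Icam1 and -0.23 to -0.25 for Tgfb1. Igf2, the imprinted fetal growth factor gene, was higher by 0.74 (adjusted p = 0.0208), and its call ended without KO replicate 1 (0.72, adjusted p = 0.0556), KO replicate 2 (0.76, 0.109) or WT replicate 3 (0.58, 0.0658). Igf2 had been higher in KO by 1.35 at 0 h (adjusted p = 0.00122). Fn1, the fibronectin gene, differed by -0.39 (adjusted p = 0.114).

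Several genes that build or cut the pericellular matrix were lower in KO. Hyaluronan is a long sugar polymer that swells tissue by binding water, and it is made by HAS enzymes, while ADAMTS1 and ADAMTS4 cut the proteoglycans that bind it. Has1 read 8.94 and 8.75 in KO against 10.12, 9.88 and 9.91 in WT. Its difference of -1.13 ± 0.08 had the smallest p-value of all genes (adjusted p = 1.43e-05). Adamts4 read 11.80 and 11.43 in KO against 12.69, 12.41 and 12.71 in WT, a difference of -0.99 ± 0.15 (adjusted p = 0.00317). KO replicate 1 read 11.80 and the lowest WT array 12.41, so no array crossed over, as for every called gene. Adamts1 read 10.05 and 9.73 against 10.64, 10.32 and 10.59, a difference of -0.62 ± 0.09 (adjusted p = 0.00326). Its other probes gave -0.37 and -0.21. All these calls held without each of the 5 arrays. Plat, the gene of tissue plasminogen activator, was lower by -1.12 (adjusted p = 0.0127), but a second probe gave 0.01, and the call ended without KO replicate 2 (-0.83, 0.151) or WT replicate 3 (-0.96, 0.052). Plat had been lower in KO by -1.07 at 0 h (adjusted p = 0.0234). Timp1, a metalloproteinase inhibitor gene, differed by -0.63 and did not pass the test (adjusted p = 0.0573). In all 4 of the 19 list members were lower and 0 higher, against 2.07% lower and 2.16% higher over all genes. The list median was -0.03, and the other 15 did not pass the test.

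From 0 to 3 h Has1 was 1.85 higher in WT and 0.56 higher in KO, Adamts4 4.01 and 2.78, Adamts1 1.77 and 1.11, Egr3 2.60 and 1.53, and Egr2 0.98 and 0.14. Plat changed by -0.62 in WT and -0.67 in KO. These changes use the same 3 h arrays as the comparison of genotypes and are given beside it for orientation. At 6 h the genotypes differed by -0.17 for Has1, -0.07 for Adamts4 and 0.02 for Adamts1, none of which passed the test.

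**Figure D2:**
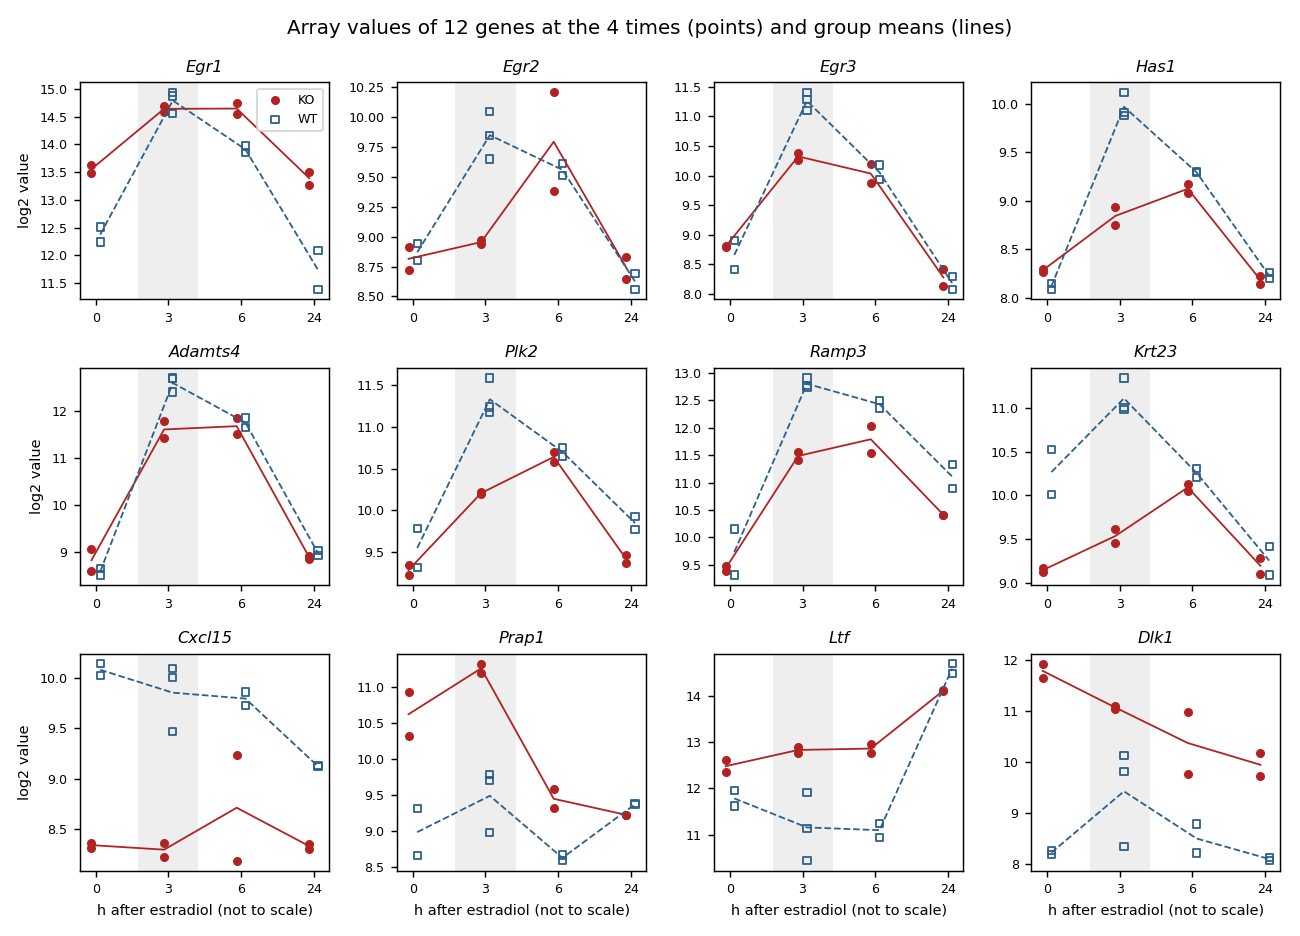
Log2 values of 12 genes on all 17 arrays by time after E2 (x axis, not to scale), with KO as filled circles and solid lines and WT as open squares and dashed lines, where lines join group means. For Egr2, Egr3, Has1, Adamts4 and Plk2 the group means are farther apart at 3 h than at 0 h, whereas those of Cxcl15 and Dlk1 are apart at all 4 times, and the mean of Ltf is higher in KO at 0, 3 and 6 h but not at 24 h.

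Of 24 tested early estrogen-response genes, 3 were lower in KO and 1 was higher, with a median of -0.13, while over all genes 2.07% were lower and 2.16% higher. Ramp3 encodes the partner protein that turns the calcitonin receptor-like receptor into a receptor for adrenomedullin. It read 11.42 and 11.55 in KO against 12.73, 12.77 and 12.91 in WT, a difference of -1.32 ± 0.20 (adjusted p = 0.00317), and a second probe gave -1.11. The groups were separated by more than 1 log2 unit, and the call held without each of the 5 arrays. Adm, the gene of adrenomedullin, a vasodilator peptide that acts through that receptor, was lower as well, by -0.41 (adjusted p = 0.00598). The cyclin D genes, whose products drive entry into the cell cycle, went both ways, with Ccnd1 lower by -0.54 (adjusted p = 0.00644) and Ccnd2 higher by 0.54 (0.00806). Ccnd1 had been lower by -0.51 at 0 h (adjusted p = 0.0133). Another D cyclin gene outside this list, Ccnd3, was higher by 0.39 (adjusted p = 0.0211). Without KO replicate 2 the calls of Adm (-0.33, adjusted p = 0.0846), Ccnd1 (-0.39, 0.091) and Ccnd2 (0.49, 0.0846) ended. That of Ccnd3 ended without KO replicate 1 (0.30, 0.101), WT replicate 2 (0.38, 0.0627) or WT replicate 3 (0.37, 0.0769), and a second Ccnd3 probe gave 0.03. The other probes of Ccnd1 gave -0.66 and -0.02. Inhba, the activin subunit gene, differed by -0.68 and did not pass the test (adjusted p = 0.0573).

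Among the 15 largest falls, 10 held without each of the 5 arrays. The most extreme was Ddit4l, whose product restrains mTORC1 signalling, with 10.66 and 10.48 in KO against 12.47, 11.89 and 12.22 in WT (-1.62 ± 0.25, adjusted p = 0.00353). Krt23, an epithelial type I keratin gene, read 9.61 and 9.46 against 10.98 to 11.34 in the 3 WT arrays (-1.58 ± 0.14, adjusted p = 0.000186). Cxcl15, a chemokine gene, read 8.37 and 8.23 against 9.47 to 10.09 (-1.55 ± 0.23, adjusted p = 0.0028). The KO values of Cxcl15 lay close to the array median of 8.20. Wfdc15b, which encodes a small secreted protein of the whey acidic protein family, was lower by -1.47 ± 0.23 (adjusted p = 0.00353).

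The other large falls include several signalling genes. Sp5, a transcription factor gene known as a direct target of Wnt signalling, read 8.60 and 8.52 in KO against 9.74, 9.78 and 9.95 in WT (-1.26 ± 0.14, adjusted p = 0.00073). Plk2, a polo-like kinase gene of the early serum response, read 10.19 and 10.22 against 11.59, 11.24 and 11.17 (-1.13 ± 0.13, adjusted p = 0.000814). Aldh1a1, which encodes an enzyme that makes retinoic acid, was lower by -1.15 ± 0.20 (adjusted p = 0.00581). On each of these probes the groups did not touch, which was a condition for being among the 15 named. Besides Plat, 4 of the 15 were not called without some array. P2ry14, the gene of a receptor for UDP-glucose, was lower by -1.44 (adjusted p = 0.0207), and the call ended without KO replicate 1 (-1.31, adjusted p = 0.0685), KO replicate 2 (-1.57, 0.0886), WT replicate 2 (-1.46, 0.0527) or WT replicate 3 (-1.37, 0.0752). Serpinb11, a serpin gene, was lower by -1.35 (adjusted p = 0.0399), and its call ended without KO replicate 2 (-0.98, 0.3) or WT replicate 3 (-0.97, 0.113). Rasgrf1, an imprinted gene of a Ras activator, was lower by -1.20 (adjusted p = 0.0133) and not called without KO replicate 2 (-1.17, 0.0975) or WT replicate 3 (-1.01, 0.0537), and its other probes gave -1.02, -0.11 and -0.08. Scgb1c1, a secretoglobin gene, was lower by -1.11 (adjusted p = 0.0297) and not called without KO replicate 2 (-0.95, 0.211), WT replicate 1 (-1.04, 0.0839) or WT replicate 3 (-1.07, 0.0957).

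**Figure D3:**
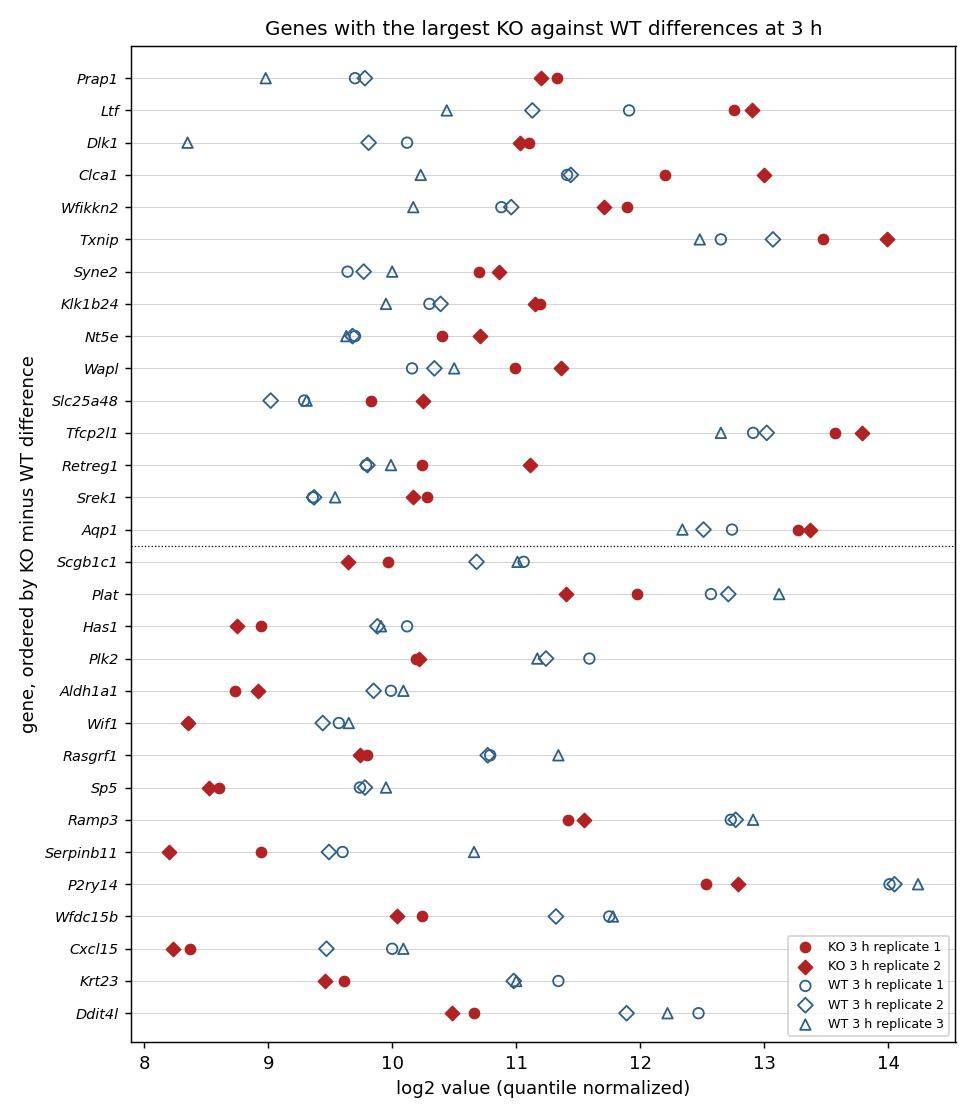
Log2 values on each of the 5 arrays at 3 h (x axis) for the 15 genes with the largest rises (upper panel section) and the 15 with the largest falls (lower section) in KO, ordered by difference. KO arrays are filled and WT arrays open. No KO symbol crosses a WT symbol because genes with overlapping arrays were not eligible. For Dlk1, Clca1, Prap1 and Serpinb11, 1 WT array stands apart from the other WT arrays.

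The largest rise was that of Prap1, the gene of a secreted proline-rich acidic protein of uterine and gut epithelium. It read 11.33 and 11.20 in KO against 9.70, 9.78 and 8.98 in WT (1.78 ± 0.23, adjusted p = 0.00149), and the call held without each of the 5 arrays. Ltf, which encodes the iron-binding secretory protein lactoferrin, read 12.76 and 12.90 in KO against 11.91, 11.13 and 10.44 in WT (1.67 ± 0.28, adjusted p = 0.00525). The 3 WT arrays of Ltf were spread over more than 1 log2 unit. Its call ended without KO replicate 2 (1.60, adjusted p = 0.0537), and a second probe gave 0.05. Dlk1, an imprinted gene of a Notch-like transmembrane protein, read 11.10 and 11.03 in KO against 10.12, 9.81 and 8.35 in WT (1.64 ± 0.42, adjusted p = 0.0432). WT replicate 3 was far below the other WT arrays for this gene. The call ended without KO replicate 1 (1.61, adjusted p = 0.0943), KO replicate 2 (1.68, 0.175), WT replicate 2 (1.83, 0.0573) or WT replicate 3 (1.10, 0.0882), and at 0 h KO had been higher by 3.55 (adjusted p = 0.0011).

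The rises that held without each of the 5 arrays also included Nt5e, whose product CD73 makes extracellular adenosine (0.89 ± 0.12, adjusted p = 0.00218). Nt5e read 10.40 and 10.71 in KO, and the WT arrays lay close together at 9.70, 9.68 and 9.63. Klk1b24, a tissue kallikrein gene, was higher by 0.95 ± 0.13 (adjusted p = 0.00207) and Wfikkn2, whose product binds growth factors of the myostatin group, by 1.13 ± 0.21 (0.00869), although a second Wfikkn2 probe gave 0.11. Syne2, the gene of a nuclear envelope linker protein, was higher by 0.98 (adjusted p = 0.00125), Wapl, which encodes a cohesin release factor, by 0.84 (0.00216) and the splicing regulator gene Srek1 by 0.80 (4.82e-05). These last 3 are read from 1 probe against others: the remaining probes gave 0.63, -0.12 and -0.05 for Syne2, 0.27, -0.20 and -0.09 for Wapl, and 0.16, 0.08, 0.20 and -0.01 for Srek1.

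The calls of further large rises ended without KO replicate 2. Txnip, whose product binds thioredoxin and curbs glucose uptake, was higher by 0.99 (adjusted p = 0.0188), but by 0.73 without that array (0.199). Tfcp2l1, an epithelial transcription factor gene, was higher by 0.82 (adjusted p = 0.00535) and by 0.71 without it (0.0698). Retreg1, a gene of an endoplasmic reticulum autophagy receptor, read 10.24 and 11.11 in KO and 9.79, 9.80 and 9.99 in WT. Its difference of 0.81 (adjusted p = 0.0272) was 0.38 without KO replicate 2 (0.247), which was the highest of the 5 arrays. Slc25a48, a mitochondrial carrier gene, was higher by 0.83 (adjusted p = 0.0447) and by 0.62 without it (0.307). The calls of Txnip, Retreg1 and Slc25a48 also ended without WT replicate 1 (0.95, 0.78 and 0.87, adjusted p = 0.057, 0.0734 and 0.0788) and WT replicate 3 (0.86, 0.88 and 0.88, adjusted p = 0.0778, 0.055 and 0.0909), and those of Retreg1 and Slc25a48 without WT replicate 2 (0.79 and 0.74, adjusted p = 0.0773 and 0.131).

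Of 25 late estrogen-response secretory genes, 3 were higher in KO and 0 lower (over all genes 2.16% were higher and 2.07% lower), with a median of -0.02. Besides Ltf these were Wfdc2, a whey acidic protein family gene with one of the brightest signals (15.03 and 15.21 against 14.44, 14.63 and 14.55, a difference of 0.58, adjusted p = 0.00462), and Klk1, the founding tissue kallikrein gene (0.59, 0.0361). Klk1 had been higher in KO by 0.98 at 0 h (adjusted p = 0.00408). The call of Wfdc2 ended without KO replicate 2 (0.49, adjusted p = 0.061) and that of Klk1 without KO replicate 1 (0.41, 0.165), WT replicate 1 (0.60, 0.0752) or WT replicate 3 (0.51, 0.126). Slpi (-0.84), Gjb2 (-0.79) and Fxyd4 (0.88), of the same list, did not pass the test (adjusted p = 0.362, 0.156 and 0.0944). Without KO replicate 2 only 1 member of the list was called. In the list of water and ion transport 2 of 18 were higher and 1 lower, against the same shares over all genes, with a median of -0.01. Aqp1, the water channel gene of vessels and other tissues, read 13.27 and 13.37 in KO against 12.74, 12.51 and 12.34 in WT (0.79, adjusted p = 0.0249). Clca1, which encodes a secreted regulator of chloride channels, was higher by 1.58 (adjusted p = 0.0143) with a second probe at 1.53, and by 1.18 without KO replicate 2 (0.163). Scnn1b, a subunit gene of the epithelial sodium channel, was lower by -0.61 (adjusted p = 0.0114) and had been lower by -0.80 at 0 h (0.00367). The Scnn1b call ended without KO replicate 2 (-0.58, 0.0937), and that of Aqp1 without KO replicate 2 (0.75, 0.156), WT replicate 2 (0.78, 0.0665) or WT replicate 3 (0.70, 0.0945). None of the 18 was called without KO replicate 2 (0 genes).

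In the Wnt list 2 of 26 genes were lower in KO and 1 was higher, against 2.07% and 2.16% over all genes. The list median was -0.03. Besides the inhibitor gene Wif1, the ligand gene Wnt5b was lower, at 9.35 and 9.18 against 10.03, 9.95 and 10.13 (-0.77 ± 0.09, adjusted p = 0.00073), and both calls held without each of the 5 arrays. The receptor gene Fzd2 was higher by 0.34 (adjusted p = 0.0468), a call that ended without either KO array or without WT replicate 1 or 3 (0.29 to 0.38, adjusted p = 0.0639 to 0.246). At 0 h Fzd2 had been lower in KO by -0.50 (adjusted p = 0.0111). Fzd10 (0.58) and Sfrp2 (0.34) did not pass the test (adjusted p = 0.0845 and 0.0952).

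Of 29 genes of growth factors and their receptors, 2 were higher in KO and 2 lower, against 2.16% and 2.07% over all genes. The list median was -0.00. Igf2 and Igf1r, the gene of the receptor through which insulin-like growth factors signal, were higher (Igf1r by 0.64, adjusted p = 0.037), and Pdgfb and the epidermal growth factor receptor gene Egfr lower (Egfr by -0.41, 0.0138). The Igf1r call ended without any one of the 5 arrays (0.57 to 0.71, adjusted p = 0.0505 to 0.215), and its other probes gave -0.06, 0.30 and -0.05. The Egfr call ended without KO replicate 2 (-0.36, 0.123), and of its 5 other probes 1 gave -0.33 and the rest lay between -0.14 and 0.05. Kit, the stem cell factor receptor gene placed in the mast cell list, was lower by -0.71 ± 0.11 (adjusted p = 0.00317) in a call that held without each array, although a second probe gave -0.09. The other tested mast cell genes were not called.

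Of 19 imprinted genes tested, 3 were higher and 2 lower, against 2.16% and 2.07% over all genes, with a median of 0.01. The higher ones were Dlk1, Igf2 and Ndn, a neuronal growth suppressor gene (0.42, adjusted p = 0.0178). The lower ones were Rasgrf1 and Asb4 (-0.26, 0.0083). The Ndn call ended without KO replicate 1 (0.29, 0.0968) or WT replicate 3 (0.34, 0.0638). Of the 19, 1 was called without WT replicate 3, and 2 were called without either KO array.

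Among nuclear receptor genes, 1 of 20 was higher and 0 lower, with a median of 0.04, while over all genes 2.16% were higher and 2.07% lower. This was Nr2f2, which encodes the stromal factor COUP-TFII of the progesterone pathway, at 9.95 and 10.14 in KO against 9.33, 9.27 and 9.52 in WT (0.67 ± 0.09, adjusted p = 0.00148). The call held without each array, but its other probes gave 0.02 and 0.15. Its upstream signal in that pathway is Indian hedgehog, and Ihh was lower by -0.48 (adjusted p = 0.0144), except without KO replicate 1 (-0.42, 0.0548) or KO replicate 2 (-0.53, 0.0568), with a second probe at -0.11. Ihh had been lower by -0.49 at 0 h (adjusted p = 0.0194). Pgr, the progesterone receptor gene, differed by -0.26 (adjusted p = 0.296) and the hedgehog receptor gene Ptch1 by -0.22 (0.532). Of 14 progesterone-response genes 1 was thus higher and 1 lower, against the same shares over all genes, with a median of 0.03.

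The remaining pathway lists held at most 2 called genes each, while over all genes 2.16% were higher in KO and 2.07% lower. In the prostaglandin list 1 of 16 was higher: Hpgds, the gene of a prostaglandin D synthase, at 10.17 and 9.86 in KO against 9.35, 9.27 and 9.29 in WT (0.71 ± 0.12, adjusted p = 0.00496). Hpgds had been higher in KO by 1.65 at 0 h (adjusted p = 2.17e-05). The prostaglandin E synthase gene Ptges, also counted among reported EGR1 targets, differed by 0.27 (adjusted p = 0.473). In the list of chemokines and cytokines 2 of 32 were lower, Cxcl15 and Cxcl14, a tissue-resident chemokine gene (-0.72 ± 0.10, adjusted p = 0.00254), and Cxcl14 had been lower by -1.68 at 0 h (1.36e-05). Without KO replicate 1, 7 of these 32 were called. In the matrix list 1 of 25 was higher, the small proteoglycan gene Bgn (0.64, adjusted p = 0.0164), which was not called without KO replicate 2 (0.46, 0.185) or WT replicate 3 (0.54, 0.0679). Col1a1 (0.88), Col3a1 (0.76) and Tnc (-0.68), the genes of fibrillar collagen chains and tenascin C, did not pass the test (adjusted p = 0.322, 0.199 and 0.215). In the list of glucose uptake and glycolysis 1 of 13 was higher, Pfkm, a phosphofructokinase gene (0.41, adjusted p = 0.011, or 0.44 and 0.0555 without KO replicate 2), with other probes at -0.05 and 0.24. Slc2a3, a glucose transporter gene, differed by 0.82 (adjusted p = 0.0586).

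The ATF4 amino-acid response raises amino acid uptake and synthesis. Of its 21 genes tested, 2 were lower and 0 higher, against 2.07% and 2.16% over all genes. Their median was -0.11, and 17 had a lower mean in KO, while 52.0% of all genes had a lower mean in KO. Slc7a11, the cystine transporter gene, was lower by -0.78 (adjusted p = 0.0133), and Shmt2, of mitochondrial serine use, by -0.43 (0.0436). Slc7a11 had been lower by -1.43 at 0 h (adjusted p = 0.000733). The 4 other probes of Slc7a11 gave -0.16, 0.00, -0.10 and -0.24, and the other probe of Shmt2 gave 0.12, in the opposite direction. Asns (-0.66), Aldh18a1 (-0.59) and Mthfd2 (-0.89) did not pass the test (adjusted p = 0.0717, 0.0606 and 0.166). Of 22 ribosome biogenesis genes 2 were lower (Nop2 by -0.31, adjusted p = 0.0276, and Rrp9 by -0.28, 0.024) and 17 had a lower mean in KO, with a median of -0.13, or -0.02 without KO replicate 2. Without WT replicate 2 the calls of Nop2 (-0.31, adjusted p = 0.0651), Rrp9 (-0.26, 0.0754) and Shmt2 (-0.35, 0.132) ended. For Nop2, Rrp9, Slc7a11 and Shmt2 in this order, no call held without KO replicate 2 (-0.20, -0.23, -0.77 and -0.34, adjusted p = 0.263, 0.192, 0.0935 and 0.288) or WT replicate 3 (-0.27, -0.28, -0.69 and -0.45, adjusted p = 0.0979, 0.0683, 0.0567 and 0.0956). Without KO replicate 1, 4 ATF4 and 6 ribosome genes were called. The lists of cholesterol synthesis (16 genes), the unfolded protein response (19), heat-shock chaperones (13), the circadian clock (14) and glutathione and xenobiotic conjugation (20) had no called member (0, limma), with 0, 2, 1, 4 and 3 members at an unadjusted p under 0.05, and their medians lay between -0.09 and 0.02. The clock output gene Dbp differed by 0.72 (adjusted p = 0.062).

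Both cell cycle lists had their lowest mean of the 5 arrays in KO replicate 1. None of 28 DNA replication genes and none of 22 mitosis genes was called (0 and 0, limma, with 1 each at an unadjusted p under 0.05), while 26 and 18 of them had a lower mean in KO and the medians were -0.12 and -0.17. The mean of the mitosis list was 8.73 in KO replicate 1, 9.20 in KO replicate 2 and 9.11 to 9.27 in WT, so that only the first stood below WT. Without KO replicate 1 the medians were 0.04 and -0.01, and without KO replicate 2 they were -0.30 and -0.44, with 0 called in either case. Tyms (-0.50), Top2a (-0.69) and Prc1 (-0.76), genes of nucleotide synthesis, chromosome untangling and cytokinesis, had adjusted p-values of 0.172, 0.226 and 0.293.

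The antigen presentation, interferon and macrophage lists had their highest mean of the 5 arrays in KO replicate 2. None of 15 antigen presentation genes and none of 24 interferon-stimulated genes was called (0 and 0, limma, with 3 and 2 at an unadjusted p under 0.05), with medians of 0.24 and 0.07. The class II gene H2-Ab1 (0.61) and the interferon-induced genes Gbp2 (0.75) and Ifit3 (0.72) had adjusted p-values of 0.304, 0.387 and 0.314. Gbp2 read 10.77 in KO replicate 1 and 12.77 in KO replicate 2, against 10.78, 10.56 and 11.72 in WT, so only 1 KO array was high. Without KO replicate 1 the calls rose to 13 of 15 and 9 of 24, and the medians to 0.90 and 0.26. Without KO replicate 2 the medians were -0.19 and -0.18. All 13 macrophage markers tested had a higher mean in KO, with a median of 0.27, and 0 were called (limma, 3 at an unadjusted p under 0.05). Their mean was 9.60 in KO replicate 1 and 10.19 in KO replicate 2, against 9.57 to 9.61 in WT, and their median difference was 0.53 without KO replicate 1 and -0.00 without KO replicate 2. The mannose receptor gene Mrc1 (0.57) and Cd163 (0.63), both markers of resident macrophages, had adjusted p-values of 0.235 and 0.212. At 0 h the median of the macrophage markers was 0.60.

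Of 14 epithelial markers, 2 were higher in KO and 0 lower (over all genes 2.16% were higher and 2.07% lower), with a median of 0.02, and both were tight-junction genes, Cldn3 (0.61, adjusted p = 0.0356) and Cldn4 (0.46, 0.0438). Neither held without KO replicate 2 (0.35 and 0.36, adjusted p = 0.327 and 0.284) or without WT replicate 2 (0.53 and 0.50, 0.109 and 0.0619) or 3 (0.61 and 0.39, 0.0919 and 0.147), and Cldn4 also not without WT replicate 1 (0.47, 0.0824). Cldn4 had been higher in KO by 0.88 at 0 h (adjusted p = 0.00217). Epithelial keratin genes of the list were not called, Krt7 at 0.27 (adjusted p = 0.28). Of 13 endothelial markers 1 was lower, the junction gene Cdh5 (-0.35, adjusted p = 0.0127), whose call ended without KO replicate 2 (-0.39, 0.05). None of the 12 smooth muscle, 11 stromal fibroblast, 9 adipocyte, 7 mesothelial, 8 lymphocyte, 3 erythroid and 4 skeletal muscle markers tested was called (0, limma, with 3, 3, 0, 2, 1, 1 and 2 at an unadjusted p under 0.05). Their medians ran from -0.20 for erythroid to 0.18 for adipocyte markers, and that of smooth muscle was 0.10. The adipocyte median was 0.70 without KO replicate 1 and -0.41 without KO replicate 2, and the smooth muscle median -0.05 and 0.36. Of 11 granulocyte markers 1 was lower, the eosinophil granule gene Prg2 (-0.44, adjusted p = 0.0114), and of 5 ovary and oviduct markers 1 was lower, the dim oocyte gene Gdf9 (-0.30, 0.0403), which ended without KO replicate 2 or any one of the WT arrays (-0.25 to -0.32, adjusted p = 0.0791 to 0.251). What part cell composition has in the differences at 3 h was not tested.

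The genotype difference at 3 h was then set against that at the other times, none of which shares an array with it. Across all 14737 genes, which are not independent replicates, it correlated at r = 0.394 with the difference at 0 h, 0.395 with that at 6 h and 0.0705 with that at 24 h. Of the 624 genes called at 3 h, 71.3% had the same direction at 0 h, 74.0% at 6 h and 64.3% at 24 h, against 57.3%, 56.9% and 49.4% of all genes. The genotypes differed in 653 genes at 0 h (4.43% of those tested), 93 at 6 h (0.631%) and 1231 at 24 h (8.35%). Called in the same direction at both times were 116 genes for 0 h, 36 for 6 h and 98 for 24 h, which is 18.6%, 5.77% and 15.7% of the 3 h calls and 17.8%, 38.7% and 7.96% of the calls at the other time. Opposite calls numbered 11, 4 and 28. For 387 of the 624 genes (62.0%) 3 h was the time at which they were called and no other time was, which does not show that they did not differ elsewhere.

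**Figure D4:**
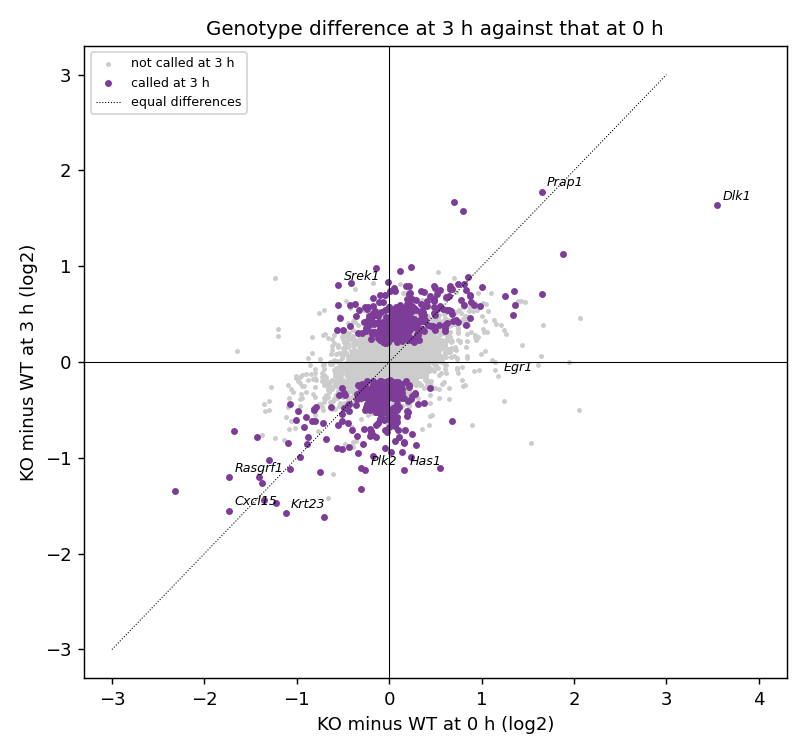
Difference between KO and WT (log2) at 3 h (y axis) against that at 0 h (x axis) for all tested genes, with genes called at 3 h in purple and equal differences on the dotted line. Prap1, Cxcl15 and Rasgrf1 lie near the dotted line, Dlk1 far to its right, and Has1 and Plk2 near zero on the 0 h axis.

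Of the 15 largest falls, 13 were also lower in KO at 0 h, and 9 were called there. Cxcl15 differed by -1.73 at 0 h (adjusted p = 0.0019), Sp5 by -1.38 (0.000445), Wif1 by -1.41 (0.0014), Wfdc15b by -1.22 (0.0145), Krt23 by -1.12 (0.00169) and Serpinb11 by -2.32 (0.00361). Has1, Plk2, Ramp3 and Ddit4l did not pass the test at 0 h, with differences of 0.16, -0.26, -0.30 and -0.70. Of the 15 largest rises, 11 were also higher at 0 h and 7 were called there in either direction. Among them were Prap1 by 1.65 (0.00286), Wfikkn2 by 1.88 (0.000733) and Nt5e by 0.85 (0.00367). Ltf differed by 0.70 at 0 h, which did not pass the test (0.242), and by 1.77 at 6 h, which did (0.0243). Called in the same direction at all 4 times were 4 genes. Arg2, the gene of a mitochondrial arginase, was lower by -0.51 at 0 h, -0.91 at 3 h, -0.75 at 6 h and -0.66 at 24 h. It read 9.06 and 8.85 in KO at 3 h against 9.88, 9.76 and 9.94 in WT (adjusted p = 0.000565). Ccnd3 was higher at each time by 0.60, 0.39, 0.67 and 0.99, the cytoskeletal gene Csrp2 by 0.38, 0.32, 0.52 and 0.43, and Gpc3, a cell-surface proteoglycan gene, by 0.58, 0.55, 0.61 and 0.60. At 3 h the call of Csrp2 ended without KO replicate 2 (0.26, adjusted p = 0.292) or WT replicates 2 (0.26, 0.142) or 3 (0.30, 0.141), and that of Gpc3 without KO replicate 1 (0.43, 0.079) or WT replicate 3 (0.49, 0.068). Srek1 was called at all 4 times too, but lower in KO at 0 h (-0.55) and higher later.

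Whether the genotype difference at 3 h departs from that before E2 was tested with the genotype by time interaction. It passed for 161 genes (1.09%), 89 with a more positive and 72 with a more negative difference at 3 h, and 79 of them were also called at 3 h. The count was 24 without KO replicate 2 of 0 h and 556 without WT replicate 2 of 0 h. It was 367 and 82 without KO replicates 1 and 2 of 3 h, 76 and 75 without WT replicates 1 and 2 of 3 h, and 83 without WT replicate 1 of 0 h. Of the 12 genes with the largest interactions in either direction, 5 kept the call without each of the 9 arrays involved. These were Has1 (-1.29, adjusted p = 0.000124), the taurine and GABA transporter gene Slc6a13 (-1.30, 0.0135), the mitochondrial carrier gene Slc25a33 (-1.23, 0.000538), Sned1, a matrix protein gene (1.15, 0.000103), and Srek1 (1.35, 1.86e-05). Has1 and Slc6a13 were lower in KO at 3 h, Slc25a33 did not pass there (-0.08, adjusted p = 0.678) after a difference of 1.15 at 0 h (2.38e-05), and Sned1 was higher at 3 h by 0.60 and lower at 0 h by -0.55. Other probes of Sned1 gave 0.05 and 0.11 at 3 h. The Slc6a13 difference at 3 h was -0.62 (adjusted p = 0.0276), and -0.39 without KO replicate 2 (0.268). It also missed the threshold without any one of the WT arrays (-0.58 to -0.65, adjusted p = 0.0502 to 0.0839). Adamts4 (-1.23, adjusted p = 0.0229), Egr3 (-1.08, 0.0325), Pdgfb (-0.71, 0.0399), Adm (-0.61, 0.0173) and Adamts1 (-0.66, 0.042) passed the interaction test in the negative direction, and that of Egr2 did not (-0.84, 0.146). Also negative were Icam1 (-0.71, 0.00451), Hpgds (-0.94, 0.0241), Prg2 (-0.75, 0.0151) and Fosl2 (-0.47, 0.0399). Icam1 had been higher in KO by 0.44 at 0 h (0.00427). Cxcl14 (0.96, 0.0135), Nr2f2 (0.84, 0.0103) and Fzd2 (0.84, 0.0126) passed in the positive direction. The interactions from Adamts4 to Fzd2 were not among the 12 largest. How far they lean on single arrays was not examined.

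A second test set the difference at 3 h against the mean of the differences at 0, 6 and 24 h. It passed for 128 genes (0.869%), 63 more positive and 65 more negative, of which 88 were also called at 3 h. This count ranged from 12 without KO replicate 2 of 3 h to 790 without KO replicate 1 of 3 h. Of the 12 genes with the largest values, Has1 kept its call without each of the 17 arrays (-1.11, adjusted p = 0.000143, range -1.21 to -1.01). The other negative ones were Egr1 (-1.34, 0.012), Krt23 (-1.13, 0.0125), Adamts4 (-1.01, 0.0234), Egr3 (-1.01, 0.02) and Egr2 (-1.00, 0.0466). Pdgfb (-0.86, 0.00826) and Plk2 (-0.87, 0.0234) passed as well. Pdgfb and Plk2 were not among the 12, and how far they lean on single arrays was not examined. The calls of Egr1 and Krt23 ended without KO replicate 2 of 3 h alone, those of Adamts4, Egr3 and Egr2 without 4, 3 and 12 of the 17 arrays. The 6 most positive were Serpina1e (1.30), Gcnt3 (1.26), Cldn3 (0.98), Tfcp2l1 (0.92), Tmprss2 (0.90) and Serpina1d (0.83). All 6 calls ended without KO replicate 2 of 3 h. Of these, Serpina1e, Gcnt3 and Serpina1d were not called at 3 h itself, where the differences were 0.51, 0.27 and 0.28 (adjusted p = 0.0763, 0.516 and 0.236).

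The last comparison asks how genes that changed from 0 to 6 h after E2 stand at 3 h. That change is read from arrays that the 3 h comparison does not use. No array holds uteri without E2 at 6 h, so other changes over those hours cannot be told apart from the E2 response. Averaged over genotypes, 385 genes (2.61%) were at least 2-fold higher at 6 h than at 0 h and passed the test, and 509 (3.45%) were at least 2-fold lower. Of the 385 that rose, 52 (13.5%) were lower in KO at 3 h and 8 (2.08%) higher, with a median difference of -0.18, and 83.1% had a lower mean in KO, against 52.0% of all genes. Of the 509 that fell, 47 (9.23%) were higher in KO at 3 h and 2 (0.393%) lower, with a median of 0.19. The genes that rose were thus shifted down in KO at 3 h, and those that fell were shifted up. The amounts depended on the KO array. Without KO replicate 2 the medians were -0.09 and 0.06, with 12 risers lower and 7 fallers higher in KO, and without KO replicate 1 they were -0.29 and 0.31, with 100 and 103. Leaving out WT replicates 1, 2 or 3 gave 35, 28 and 23 risers lower and 32, 28 and 18 fallers higher, with medians of -0.18 to -0.19 and 0.15 to 0.21. At 24 h the same sets had medians of 0.09 and -0.12, with 45 risers higher and 25 lower, and 19 fallers higher and 62 lower.

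**Figure D5:**
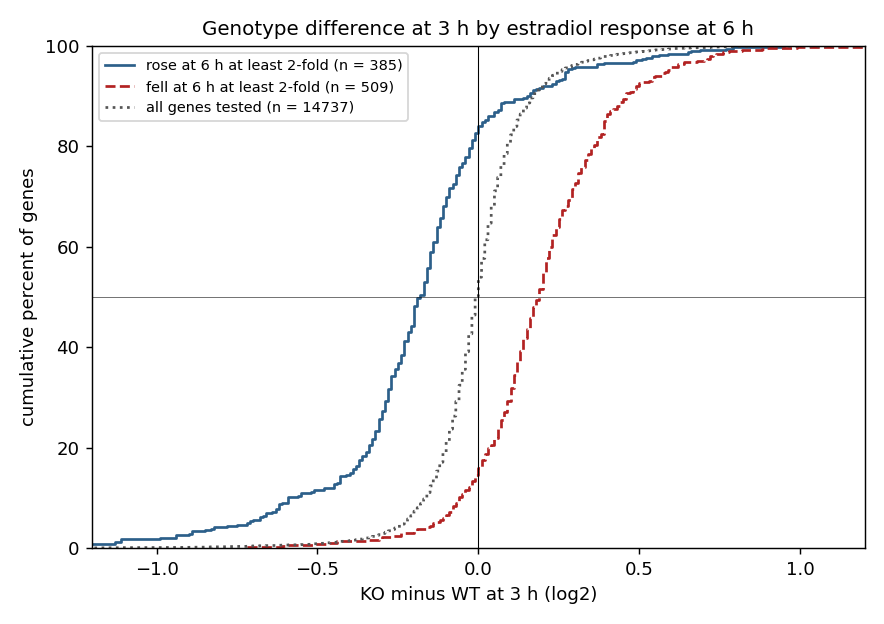
Cumulative percent of genes (y axis) by the KO minus WT difference at 3 h (log2, x axis, shown from -1.2 to 1.2) for the 385 genes that rose at least 2-fold by 6 h after E2, the 509 that fell, and all 14737 genes. The curve of the genes that rose lies to the left of that of all genes, with a median of -0.18, and the curve of those that fell lies to the right, with a median of 0.19.

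Among the risers that were lower in KO at 3 h were Has1, Adamts4, Adamts1, Egr3, Ramp3, Plk2, Kit, Icam1 and Nop2. Chosen for naming after their values were seen, Sox9, the gene of a transcription factor of uterine glands, was lower by -0.85 (adjusted p = 0.00713) with a rise of 2.05 at 6 h, and Lrig1, the gene of a feedback inhibitor of growth factor receptors, by -0.64 (0.00148) with a rise of 1.12. Of the 8 risers that were higher in KO, 5 were tissue kallikrein genes, also named after their values were seen. Klk1 was higher by 0.59 (adjusted p = 0.0361), Klk1b21 by 0.79 (0.0272), Klk1b24 by 0.95 (0.00207), Klk1b26 by 0.69 (0.0234) and Klk1b27 by 0.65 (0.0279). These genes are near-identical copies whose probes can share targets, so they do not count as independent genes. Among the fallers that were higher in KO were Nt5e, Clca1, Bgn, Igf1r, Fzd2, Csrp2 and Gpc3.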

How the data were processed

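The authors deposited 1 table of log2 intensities for the 17 arrays, and the submitters' processing notes name BeadStudio without a version. Its sorted columns are identical, so the values are quantile normalized and a shift of all genes cannot be seen. Of 45281 probes, 34885 have 1 gene symbol in the platform annotation, 18 several and 10378 none, and 34807 matched RefSeq GRCm38.p6. Probes above the array median on at least 2 arrays were kept, and the brightest one stood for its gene (14737 genes). limma 3.58.1 in R 4.3.3 fitted 8 group means to all 17 arrays, with Benjamini-Hochberg adjustment over all genes and a threshold of 0.05. The code was tested on simulated data. The members and gene lists were chosen with earlier results of these data known. Named were the 15 largest rises and 15 largest falls without overlap, the 6 highest and 6 lowest for each difference of differences, up to 8 genes called at all 4 times, up to 4 members per list by size, and the EGR and NAB genes. Clone-like symbols were passed over. The classes by change from 0 to 6 h were added after seeing the data. Alternatives were other filters, probe rules, normalizations, moderation, array weights, blocks and leaving out each array. The small number of arrays limits the precision.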

Additional observations from a re-analysis of the deposited data

Results flagged for a closer look

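The genotype difference at 3 h departed from that at 0 h, by the interaction test in limma, for 12 genes named by size. The interaction was negative for Pdk4 (-1.56), Egr1 (-1.33), Slc6a13 (-1.30), Has1 (-1.29), Hif3a (-1.26) and Slc25a33 (-1.23). It was positive for Lpp (1.55), Gcnt3 (1.47), Srek1 (1.35), Serpina1e (1.27), Sned1 (1.15) and Syne2 (1.13). For Hif3a and Slc25a33 the larger difference was the one at 0 h, where KO was higher by 1.66 and 1.15, against 0.39 and -0.08 at 3 h. For Lpp and Gcnt3 KO was lower by -1.20 each at 0 h and differed by 0.35 and 0.27 at 3 h. Other probes gave -0.23, -0.04 and 0.08 for Lpp and -0.14 and -0.07 for Hif3a at 3 h. Those of Srek1 gave 0.16, 0.08, 0.20 and -0.01, those of Sned1 0.05 and 0.11, and those of Syne2 0.63, -0.12 and -0.05. Of the 12 calls, 7 ended without KO replicate 2 of 0 h and 4 without KO replicate 2 of 3 h.

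The difference at 3 h departed from the mean of the other times for 12 genes. It was more negative for Egr1 (-1.34), Krt23 (-1.13), Has1 (-1.11), Adamts4 (-1.01), Egr3 (-1.01) and Egr2 (-1.00). It was more positive for Serpina1e (1.30), Gcnt3 (1.26), Cldn3 (0.98), Tfcp2l1 (0.92), Tmprss2 (0.90) and Serpina1d (0.83). Of these 12 calls, 11 ended without KO replicate 2 of 3 h, and that of Has1 did not. The Egr1 values come from 1 probe, and the labels do not say whether it falls inside the disrupted stretch.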

How the results depend on the processing

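The count at 3 h (624) was 351 with only the 5 arrays at 3 h, 246 with array weights and 940 with every probe tested by itself, which gives no value for a gene or list. Leaving out 1 array gave 198 to 1139, and 117 genes were called throughout. It was 609 with arrays centred on the median (56.2% higher in KO) and 628 with cyclic loess (59.1%), against 51.1% higher as deposited. The interaction count (161) was 46 with array weights, 260 with every probe by itself and 24 to 556 without 1 array. The count against the other times (128) was 71 with an intensity trend, 42 with array weights and 12 to 790 without 1 array. At 0 h (653) it was 367 with array weights and 183 to 1720 without 1 array, at 6 h (93) 159 and 0 to 589, and at 24 h (1231) 3242 and 392 to 443. The 0 arose without WT replicate 1 of 6 h, where limma left 1127 genes at an unadjusted p under 0.05. Of 1023 values for the 64 called named genes, 852 kept their call, 171 lost it and 0 reversed. In the fits without 1 array at 3 h no reversal was possible, since the called genes had no overlap.

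The deviations of same-numbered arrays from their group means correlated at r from -0.195 to 0.305, with a median of -0.001. In most groups the deviations of the arrays mirror each other, so most values recur with the same or the opposite sign. Few of them are therefore independent, and they cannot decide whether arrays with equal numbers share a batch or day. Such sharing was not tested. With the replicate number as a block the counts were 274 at 3 h and 39 against the other times, and with the title letter as a block 487 at 3 h.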
